A study of Mus musculus with 6 samples.

Results

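CXCR4 is the receptor through which leukocytes sense the chemokine CXCL12, and the genes described here are its transcript and those of its nearest partners in ligand binding: Cxcr4, the other CXCL12 receptor Ackr3, the ligands Cxcl12 and Mif, and Cd74, the receptor of MIF. They were chosen by name, and all 5 were found among the 54532 genes of each table. RNA was sequenced from C57BL/6 macrophages that had been differentiated from bone marrow. The siCXCR4 cells carried a small interfering RNA (siRNA) directed at Cxcr4, and the siNC cells a negative-control siRNA. Lipopolysaccharide (LPS), which macrophages recognise as a bacterial product, was given to both groups at 100 ng/ml for 12 hours, so all values describe LPS-treated cells and none is set against unstimulated ones. The labels name 3 samples per group. The siNC replicate 3 table repeats the reads of siNC replicate 2, equal in all 19072 genes with reads, so the pair was counted as 1 sample, leaving 3 siCXCR4 and 2 siNC libraries. The column headers begin with mko for siCXCR4 and wt for siNC, and the labels do not say what mko stands for.

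As background, CXCR4 is a membrane receptor coupled to inhibitory G proteins. It binds CXCL12, a chemokine made mainly by stromal and endothelial cells, and keeps leukocytes and their precursors in the bone marrow. ACKR3 binds CXCL12 as well, recruits arrestins in place of G proteins and clears the chemokine from the surroundings. MIF is a cytokine that macrophages hold ready-made and release after LPS, and it acts through CD74, with CD44 as the signalling partner, and through CXCR2 and CXCR4. CD74 is also the invariant chain, which escorts major histocompatibility complex (MHC) class II molecules to the compartment where peptides are loaded.

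The stretches of genome before the start sites are shown for Cxcr4 and Mif, whose transcripts were abundant, and for Cxcl12 and Ackr3, whose transcripts were at or near 0 reads. Each is the 250 bases upstream of the RefSeq start site in GRCm38.p6, written 5′ to 3′ along the strand of the gene. Capitals mark matches, on either strand, to the GC box GGGCGG, the NRF1 element core GCATGCGC, the cyclic AMP element TGACGTCA and the TATA box TATAAA.
Cxcr4, chr1:128592300-128592549, minus strand: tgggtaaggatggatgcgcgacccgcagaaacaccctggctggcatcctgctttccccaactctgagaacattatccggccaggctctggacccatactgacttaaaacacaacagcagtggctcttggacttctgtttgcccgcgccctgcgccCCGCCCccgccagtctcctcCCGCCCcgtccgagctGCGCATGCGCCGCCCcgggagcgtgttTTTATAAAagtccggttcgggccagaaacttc
Mif, chr10:75860278-75860527, minus strand: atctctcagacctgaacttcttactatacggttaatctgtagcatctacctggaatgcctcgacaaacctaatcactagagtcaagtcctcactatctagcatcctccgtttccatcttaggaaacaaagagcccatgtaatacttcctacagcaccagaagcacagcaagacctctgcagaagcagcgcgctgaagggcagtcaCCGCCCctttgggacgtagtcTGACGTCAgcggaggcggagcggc
Cxcl12, chr6:117168285-117168534, plus strand: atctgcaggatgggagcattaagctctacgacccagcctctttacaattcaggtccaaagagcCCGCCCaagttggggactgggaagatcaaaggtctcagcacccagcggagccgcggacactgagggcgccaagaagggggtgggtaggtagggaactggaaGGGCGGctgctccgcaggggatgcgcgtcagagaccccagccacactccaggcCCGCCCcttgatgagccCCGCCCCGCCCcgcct
Ackr3, chr1:90203730-90203979, plus strand: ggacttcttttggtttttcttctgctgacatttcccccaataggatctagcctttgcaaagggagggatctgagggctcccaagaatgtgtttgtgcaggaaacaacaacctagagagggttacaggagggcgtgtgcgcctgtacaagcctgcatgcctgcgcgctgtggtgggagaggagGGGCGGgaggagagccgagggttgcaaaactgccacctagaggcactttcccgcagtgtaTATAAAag

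The Cxcr4 stretch held 3 GC boxes, which begin 95, 75 and 50 bases before the start, and 2 NRF1 core matches, on opposite strands, that begin at 59 and 57 and overlap each other; the match at 57 shares its last base with the nearest GC box. NRF1 and SP1, the factors that bind such elements, are known activators of CXCR4 in human cells. Its pair of TATA box matches, at 32 and 30 bases, overlap on opposite strands. The Mif stretch held 1 GC box at 45 bases and 1 cyclic AMP element at 24 bases, with no TATA box. The Cxcl12 stretch held 5 GC boxes, of which those at 16 and 11 bases overlap, and the Ackr3 stretch held 1 GC box at 68 bases and 1 TATA box at 8 bases. Over 32851 promoter stretches of the same length, 32.7% held a GC box, 2.26% the NRF1 core, 1.55% the cyclic AMP element and 12.4% a TATA box. Of the other motifs searched, the hypoxia element core GCGTG was found in Cxcr4 and in Ackr3 (28.2% of all stretches) and CCAAT in Ackr3 (33.9%), while ACGTG (16.6%) and the GAS element TTCNNNGAA (7.02%) had no match in these letters. CG dinucleotides numbered 19 in the Cxcr4 stretch, 11 in Mif, 14 in Cxcl12 and 7 in Ackr3, against a median of 6 over all stretches. The Cxcl12 stretch thus held more GC boxes than those of Cxcr4 and Mif, with a CG count between theirs. A match describes letters and is not a site that was measured.

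The libraries held 18890751 to 21780840 reads in genes. Levels are in FPKM, which divides the reads of a gene by its length and by the size of the library. By the chi-square of read counts per gene, siCXCR4 replicate 2 lay nearer to siNC replicate 1 (4.50) than to siCXCR4 replicates 1 (6.87) and 3 (8.66), so values with and without it are given. In turn siNC replicate 1 lay nearer to siCXCR4 replicate 2 than to siNC replicate 2 (5.24), so the measure does not single out either library. All 8 macrophage markers were measured, with Lyz2 at 2172 to 2452 FPKM in siCXCR4 and 2308 to 2470 FPKM in siNC. Cd68 was at 522 to 549 FPKM in siCXCR4 and 452 to 505 FPKM in siNC, and Adgre1 at 441 to 508 FPKM in siCXCR4 and 458 to 528 FPKM in siNC. Across all genes, limma called 0 of 9943 at an adjusted p under 0.05 (0%), while 929 (9.34%) had an unadjusted p below 0.05. On reads worked back from FPKM, edgeR called 17 of 12794 (0.133%), with 9.73% at an unadjusted p below 0.05, and DESeq2 called 33 (0.328%). These counts depend on settings chosen after a first run: edgeR without its robust estimate called 3, and DESeq2 without a filter before the fit called 28. Whether replicates stem from different animals or cultures is not labelled, and the p-values reflect variation among these samples alone, and that variation may be technical.

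By level per length the members formed a clear order: Cd74, then Mif, then Cxcr4, with Cxcl12 and Ackr3 far below. The ranges of the abundant members did not touch: Cd74 spanned 338 to 527 FPKM over the 5 libraries, Mif 62.4 to 71.3 FPKM and Cxcr4 31.1 to 42.1 FPKM. Among the 18503 to 19274 genes with reads in a library, Cd74 held places 60 to 115 by level, Mif places 694 to 776 and Cxcr4 places 1103 to 1514. The order does not depend on the length the authors used. For Mif that length was 745 bases, which includes a retained intron, while its main transcript in GENCODE M21 has 544 bases, and by the shorter length Mif would stand at 85.4 to 97.6 FPKM. For Cxcr4 the lengths were 1808 and 1805 bases.

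**Figure D1:**
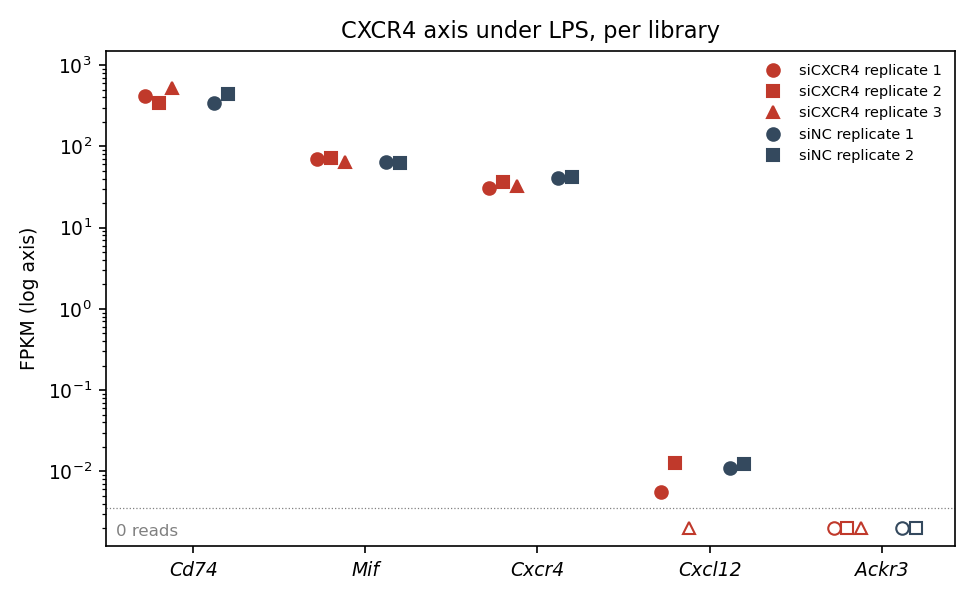
FPKM of each member on a log axis, 1 point per library, with siCXCR4 (red) left of siNC (dark) and open symbols for libraries with 0 reads. Cd74, Mif and Cxcr4 occupy separate bands in all 5 libraries, while Cxcl12 stays at or below 0.0126 FPKM and Ackr3 at 0 reads.

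The siRNA target itself comes first among the receptors. Cxcr4 (ENSMUSG00000045382) is on chromosome 1, 128588199 to 128592293 (GRCm38, minus strand), with 2 exons, all of which enter its value. It had 31.1, 36.2 and 32.7 FPKM in siCXCR4 replicates 1, 2 and 3, against 41.3 and 42.1 FPKM in siNC replicates 1 and 2. All 3 siCXCR4 libraries lay below both siNC libraries, and siCXCR4 replicate 2 lay nearest to them. The counting intervals were apart too: exact 95% Poisson intervals of the reads ran from 29.4 to 32.9, 34.3 to 38.3 and 30.8 to 34.7 FPKM in siCXCR4, and from 39.3 to 43.3 and 40.0 to 44.3 FPKM in siNC. These intervals cover counting error only.

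The means of Cxcr4 were 33.4 ± 2.62 FPKM in siCXCR4 (SD, n = 3) and 41.7 ± 0.616 FPKM in siNC (SD, n = 2). The log2 fold change (on log2(FPKM + 1), with siNC subtracted from siCXCR4) was -0.32 (95% interval -0.48 to -0.15), a factor of 0.803 (limma adjusted p = 0.457). With reads in place of FPKM, edgeR gave -0.34 (adjusted p = 0.0637) and DESeq2 gave -0.34 (adjusted p = 0.0465). That single call of the full set of libraries did not hold under other settings, since DESeq2 without a filter before the fit gave an adjusted p of 0.0511, and edgeR without its robust estimate gave 0.133. Without siCXCR4 replicate 2, edgeR gave -0.40 with an adjusted p of 0.00104. That library had the highest Cxcr4 of its group, so leaving it out deepens the fall, and edgeR then called 312 genes in place of 17. Without siCXCR4 replicate 1 or 3 the edgeR adjusted p was 0.439 or 0.3075. Without siNC replicate 1 or 2 the edgeR log2 fold change was -0.36 or -0.32. A two-sided exact permutation test over the 5 libraries gave p = 0.1, the smallest p they allow. Of the 3 members tested, Cxcr4 was the 1 whose groups did not overlap, being lower in siCXCR4, as were 9.92% of all genes tested. In bulk RNA, fewer cells that carry a transcript and less of it per cell cannot be told apart.

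Transcripts of the calprotectin subunits, which neutrophils and also macrophages make, had lower values in siCXCR4, but neither was called with all libraries in the fit. S100a8, a calcium-binding protein on the list of neutrophil markers, had 10.8, 13.3 and 10.7 FPKM in siCXCR4 and 18.2 and 15.3 FPKM in siNC, again without overlap. Its partner S100a9, which is not on the list and was named after its values were seen, had 46.2, 41.8 and 37.7 FPKM in siCXCR4 and 52.4 and 52.9 FPKM in siNC, also without overlap. Of all genes tested, 9.92% were lower in siCXCR4 without overlap. The log2 fold changes were -0.50 for S100a8 (limma adjusted p = 0.457) and -0.33 for S100a9 (limma adjusted p = 0.486), and edgeR and DESeq2 called neither. The other 4 of the 5 markers on that list were under 1 FPKM, with Mpo at 0.0536 FPKM or less and Ly6g, Elane and Cxcr2 at 0 to 3 reads per library. The summed level of the list, nearly all of it S100a8, was 10.8 to 13.4 FPKM in siCXCR4 and 15.6 to 18.3 FPKM in siNC. The defining granule and surface markers were therefore at or near 0 in both groups, and the part of cells that carry S100a8 and S100a9 in the Cxcr4 difference was not tested.

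Ackr3 (ENSMUSG00000044337, chromosome 1, 90203980 to 90216751, plus strand) had 0 reads in every library. A count of 0 allows up to 3 reads (a one-sided 95% limit, where the intervals above are two-sided), which is 0.0411 to 0.0468 FPKM in siCXCR4 and 0.0406 to 0.0454 FPKM in siNC. Ackr3 transcript was thus not detectable at this depth in either group, and no fold can be given. Adm, a peptide that ACKR3 also binds, had 1 read in siCXCR4 replicate 2 and 0 reads in the other libraries. The other MIF receptor of the chemokine family, Cxcr2, had at most 3 reads in any library. Among the receptors that bind CXCL12 or MIF, abundant transcript was therefore seen for Cxcr4 and for Cd74 with its partner Cd44.

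Of the ligands, Cxcl12 (ENSMUSG00000061353, chromosome 6, 117168535 to 117181367, plus strand) had 1, 2 and 0 reads in siCXCR4 and 2 and 2 reads in siNC. These reads give 0.00562, 0.0126 and 0 FPKM in siCXCR4 and 0.0111 and 0.0124 FPKM in siNC. With every library at or under 3 reads, no difference can be read and no fold is given. CXCL12 is chiefly a product of stromal cells, and the stromal markers Col1a1 (0.212 to 0.310 FPKM in siCXCR4 and 0.235 to 0.301 FPKM in siNC) and Lepr (at most 5 reads) were low, while Pdgfrb stood at 10.2 to 12.6 FPKM in siCXCR4 and 11.8 to 14.1 FPKM in siNC. Of the endothelial markers, Kdr had 4.84 to 6.18 FPKM in siCXCR4 and 4.70 to 5.67 FPKM in siNC. Pecam1 averaged 1.19 ± 0.0844 FPKM in siCXCR4 (SD, n = 3) and 1.22 ± 0.0386 FPKM in siNC (SD, n = 2). Cdh5 was low, at 0.261 to 0.393 FPKM in siCXCR4 and 0.270 to 0.386 FPKM in siNC. Of the 8 stromal and endothelial markers, 5 averaged under 1 FPKM.

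Mif (ENSMUSG00000033307, chromosome 10, 75859353 to 75860240, minus strand) was the ligand with abundant transcript. It had 68.9, 71.3 and 63.6 FPKM in siCXCR4 and 63.9 and 62.4 FPKM in siNC, resting on 907 to 1118 reads per library. The groups overlapped, since siCXCR4 replicate 3 lay between the siNC libraries, and the means were 67.9 ± 3.94 FPKM in siCXCR4 (SD, n = 3) and 63.2 ± 1.12 FPKM in siNC (SD, n = 2). The log2 fold change was 0.10 (95% interval -0.05 to 0.25), and adjusted p-values were 0.634 by limma, 0.738 by edgeR and 0.9996 by DESeq2. Mif has processed copies in the mouse genome: the annotated Mif-ps3 and Mif-ps7 match its main transcript at 95.7% and 91.1% of aligned bases, with a longest shared run of 59 and 25 bases. Mif-ps7 had 1 read in siNC replicate 1 and 0 elsewhere, and Mif-ps3 had 0 reads. The labels do not say how reads that match several loci were placed, so the Mif level is uncertain to that extent.

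Because library scaling enters FPKM, ratios of members within a library were also taken, a measure chosen after the values were seen. The Mif to Cxcr4 ratio was 2.21, 1.97 and 1.94 in siCXCR4 and 1.55 and 1.48 in siNC. No siCXCR4 library came within the siNC range, and the means were 2.04 ± 0.151 in siCXCR4 (SD, n = 3) and 1.51 ± 0.0492 in siNC (SD, n = 2). The difference of 0.43 on the log2 scale had p = 0.1 in a two-sided exact permutation test, the smallest p possible here, and was 0.45 without siCXCR4 replicate 2. The groups of Cxcr4, the denominator, were already apart (log2 fold change -0.32), while those of Mif overlapped (0.10). This ratio therefore largely repeats the Cxcr4 difference. The Cd74 to Cxcr4 ratio overlapped between the groups, at 13.5, 9.42 and 16.1 in siCXCR4 and 8.20 and 10.3 in siNC (exact permutation p = 0.3). The Cd74 to Mif ratio likewise overlapped, at 6.09, 4.79 and 8.29 in siCXCR4 and 5.29 and 6.98 in siNC. A further 2 ratios were computed, Cd44 to Cd74 and Ddt to Mif, with exact permutation p = 0.9 and 0.5. Of the 5 ratios none passes 0.05 before or after adjustment, and with these 5 libraries none could.

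**Figure D2:**
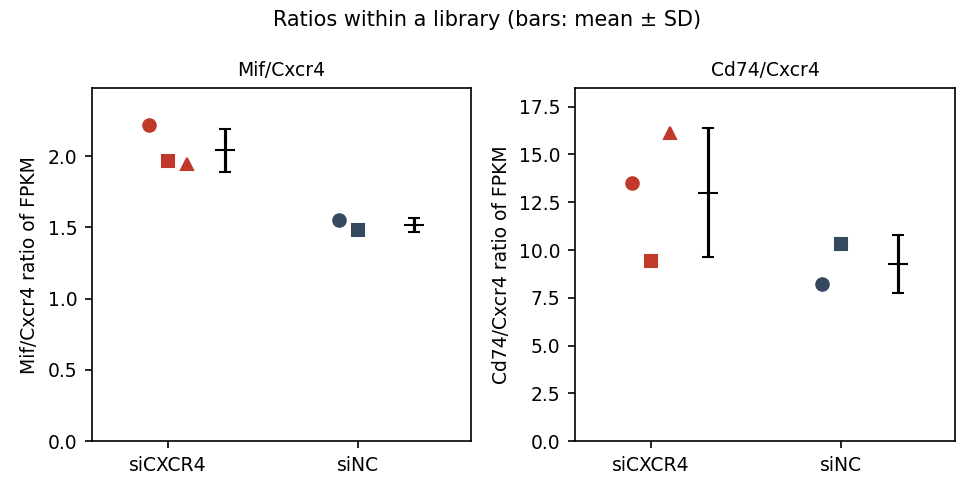
Ratio of FPKM of Mif to Cxcr4 (left) and of Cd74 to Cxcr4 (right) within each library, siCXCR4 left of siNC, with the mean and SD as bars. The Mif to Cxcr4 ratios of the 3 siCXCR4 libraries (1.94 to 2.21) lie above both siNC ratios (1.48 and 1.55), while the Cd74 to Cxcr4 ratios overlap.

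Cd74 (ENSMUSG00000024610, chromosome 18, 60803848 to 60812646, plus strand) was the most abundant member and the most variable of the 3 tested. It had 419, 341 and 527 FPKM in siCXCR4 and 338 and 435 FPKM in siNC, resting on 9328 to 14223 reads per library. Low values occurred in both groups, in siCXCR4 replicate 2 and siNC replicate 1, and these libraries differed from the others of their own group by far more than counting error. The exact 95% Poisson interval was 334 to 348 FPKM in siCXCR4 replicate 2, against 518 to 535 FPKM in siCXCR4 replicate 3. The means were 429 ± 93.1 FPKM in siCXCR4 (SD, n = 3) and 387 ± 68.7 FPKM in siNC (SD, n = 2). The log2 fold change of 0.14 (95% interval -0.42 to 0.69, limma adjusted p = 0.860) was smaller than the spread between replicates. Leaving out siNC replicate 1 turned it to -0.043, leaving out siCXCR4 replicate 3 turned it to -0.020, and it was 0.29 when siCXCR4 replicate 2 was left out.

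Other cells that make much CD74 are B cells and dendritic cells. The 6 markers of B and T cells together summed to 0.0416 to 0.141 FPKM in siCXCR4 and 0.0561 to 0.159 FPKM in siNC. Of the 6 dendritic cell markers, Cd209a had 0 reads and Flt3 and Zbtb46 stayed at or under 0.0852 FPKM. H2-Ab1 and Itgax, which activated macrophages also express, stood at 146 to 180 and 175 to 186 FPKM in siCXCR4 and at 168 to 194 and 178 to 196 FPKM in siNC. The summed dendritic list was 337 to 361 FPKM in siCXCR4 and 367 to 376 FPKM in siNC. Within each group this sum, like H2-Ab1, was lowest and highest in the same libraries as Cd74, namely siCXCR4 replicates 2 and 3 and siNC replicates 1 and 2. Itgax and Ccr7 did not share this order: both were highest in siCXCR4 replicate 2 and, within siNC, in replicate 1. Between the groups the sum lay lower in siCXCR4 without overlap, as did 9.92% of all genes tested, but the gap was only from 361 to 367 FPKM. H2-Ab1, Itgax and Ccr7 each overlapped between the groups, as did Cd74. The part of the summed markers in the Cd74 values was not tested. Ccr7, a receptor of migrating dendritic cells, had 3.54 to 4.36 FPKM in siCXCR4 and 4.18 to 4.29 FPKM in siNC. The overlapping microRNA gene Mir5107, on the same strand, averaged 1.80 reads against 11811 for Cd74.

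**Figure D3:**
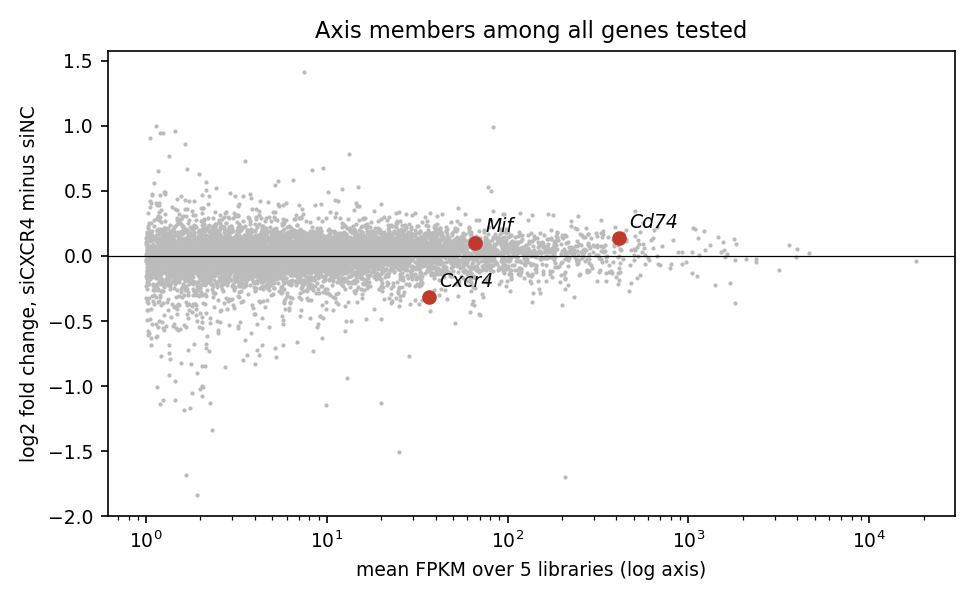
Log2 fold change (siCXCR4 minus siNC) against mean FPKM on a log axis for the 9943 genes tested, with the 3 tested members in red. Cxcr4 lies at -0.32, at place 235 by size of fall, while Mif (0.10) and Cd74 (0.14) lie within the cloud of genes of like level.

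The genes that act directly on these ligands and receptors were given in a list of 12, of which 9 passed the filter of a mean of 1 FPKM. Of these, 6 were higher and 3 lower in siCXCR4, with a median log2 fold change of 0.03, beside 0.01 over all genes tested. By limma 0 of the 9 passed at an adjusted p under 0.05 and 0 had an unadjusted p under 0.05, and edgeR and DESeq2 also called 0. The split was 5 higher and 4 lower by edgeR, by DESeq2 and with quantile normalization, and stayed at 6 and 3 with median scaling, so the list had no stable direction.

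On the MIF side, Cd44, the hyaluronan receptor that signals with CD74, had 82.2, 89.1 and 78.1 FPKM in siCXCR4 and 82.4 and 80.2 FPKM in siNC. It was nearly level across all 5 libraries, with a log2 fold change of 0.03 (95% interval -0.13 to 0.19) that turned to -0.02 without siCXCR4 replicate 2. Ddt, the homologue of MIF that also binds CD74, stood far below Mif per length, at 3.74, 3.60 and 4.86 FPKM in siCXCR4 and 4.46 and 4.07 FPKM in siNC. Cops5, a signalosome subunit that binds MIF inside cells, averaged 15.8 ± 0.698 FPKM in siCXCR4 and 15.6 ± 1.53 FPKM in siNC. The groups overlapped for each of these genes.

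On the CD74 side, Ctss, the cathepsin that trims the invariant chain, was the most abundant gene of the list, at 3779, 3662 and 3566 FPKM in siCXCR4 and 3291 and 3632 FPKM in siNC. Sppl2a, the membrane protease that removes what is left of CD74, averaged 83.4 ± 1.78 FPKM in siCXCR4 and 85.2 ± 1.97 FPKM in siNC. Ciita, the activator of MHC class II and Cd74 transcription, had 5.89, 5.71 and 7.06 FPKM in siCXCR4 and 5.72 and 7.24 FPKM in siNC. As for Cd74, its highest values were in siCXCR4 replicate 3 and siNC replicate 2, and its groups overlapped.

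On the CXCL12 side, Cxcl11, a ligand that ACKR3 shares with CXCR3, had 7.36, 3.96 and 8.38 FPKM in siCXCR4 and 4.54 and 7.13 FPKM in siNC. Its low libraries were those low in Cd74, siCXCR4 replicate 2 and siNC replicate 1, and its log2 fold change of 0.12 had a 95% interval from -0.83 to 1.07. Cxcl14, a chemokine reported to bind CXCR4, averaged 3.21 ± 0.478 FPKM in siCXCR4 and 3.13 ± 0.696 FPKM in siNC. Hmgb1, a nuclear protein that forms a complex with CXCL12 outside cells, averaged 3.26 ± 0.107 FPKM in siCXCR4 and 3.11 ± 0.0582 FPKM in siNC. Dpp4, the protease that clips and inactivates CXCL12, was under the filter at 0.0744 to 0.163 FPKM in siCXCR4 and 0.0502 to 0.0722 FPKM in siNC. All its siCXCR4 values lay above both siNC values, as for 17.9% of all genes tested. On 7 to 20 reads per library, the gap from 0.0722 to 0.0744 FPKM is too small to read.

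Genes that carry the CXCR4 signal or remove the receptor from the surface formed a list of 28, of which 26 passed the filter. Before adjustment limma put 3 higher and 1 lower past 0.05, beside 5.80% and 3.54% of all genes, and 0 passed when adjusted over all genes by limma, edgeR or DESeq2. In sign, 22 were higher and 4 lower in siCXCR4, with a median log2 fold change of 0.06, beside 56.4% higher and a median of 0.01 over all genes. By edgeR the list had the same split, beside 50.3% higher over all genes, and over the alternatives 19 to 22 of the 26 were higher where all were tested. Abundant genes leaned higher in general. Among genes averaging at least 5 FPKM, 20 of 23 of the list were higher (median 0.06), beside 61.7% of all such genes (median 0.03). The groups did not overlap for 9 that were higher and 2 that were lower, beside 17.9% and 9.92% of all genes. No gene of the list changed beyond the test, and these counts describe its members only.

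Ptk2, the focal adhesion kinase, had the lowest p of the list, at 2.14, 2.10 and 2.12 FPKM in siCXCR4 and 1.68 and 1.75 FPKM in siNC. Its log2 fold change was 0.20 (95% interval 0.04 to 0.36), and adjusted p-values were 0.504 by limma and 0.244 by edgeR. The focal adhesion scaffold Pxn averaged 21.3 ± 0.864 FPKM in siCXCR4 and 19.3 ± 0.312 FPKM in siNC. The small GTPases Rac1 and Rac2, which drive migration, lay the same way, with Rac1 at 68.3 ± 1.21 FPKM in siCXCR4 and 62.2 ± 2.58 FPKM in siNC. Rac2 was at 171 ± 3.97 FPKM in siCXCR4 and 157 ± 8.89 FPKM in siNC. For each of these 4 genes all siCXCR4 libraries lay above both siNC libraries, as for 17.9% of all genes tested. The 4 were named for a low p in these same data, which favours such separation, so it is no further result.

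The inhibitory G protein subunit Gnai2, to which CXCR4 couples, averaged 146 ± 6.39 FPKM in siCXCR4 and 131 ± 9.77 FPKM in siNC, with a log2 fold change of 0.15 (95% interval -0.01 to 0.31). Pik3r5, which links G proteins to phosphoinositide 3-kinase, averaged 66.5 ± 2.50 FPKM in siCXCR4 and 61.6 ± 0.468 FPKM in siNC, and Vav1, an activator of Rac, 151 ± 7.80 FPKM in siCXCR4 and 140 ± 3.05 FPKM in siNC. Of the proteins that switch the receptor off, Grk3 and Arrb1 had lower values in siCXCR4. Grk3, a kinase that phosphorylates CXCR4 after ligand binding, had 8.46, 8.87 and 8.99 FPKM in siCXCR4 and 9.57 and 9.77 FPKM in siNC, and its log2 fold change was -0.13 (95% interval -0.25 to -0.0014, limma adjusted p = 0.532). Arrb1, an arrestin that binds the phosphorylated receptor, had 2.61, 3.21 and 3.04 FPKM in siCXCR4 and 3.38 and 3.44 FPKM in siNC. For both, which were also named for a low p, all siCXCR4 libraries lay below the siNC libraries, as for 9.92% of all genes tested. The related Grk2 and Arrb2 overlapped between groups, with log2 fold changes of 0.02 and 0.06. The kinase Grk6 and the ubiquitin ligase Itch, which sends CXCR4 to degradation, also overlapped, with log2 fold changes of 0.07 and 0.05. Log2 fold changes were thus negative for Grk3 and Arrb1 and positive, with overlap, for these 4, so the tested genes of this role had no common direction. The kinase Grk5, under the filter, averaged 1.04 ± 0.0374 FPKM in siCXCR4 (SD, n = 3) and 0.752 ± 0.293 FPKM in siNC (SD, n = 2). All its siCXCR4 values lay above both siNC values, as for 17.9% of all genes tested. The siNC libraries stood apart at 0.9595 and 0.5449 FPKM, the first close under the lowest siCXCR4 value. On 34 to 69 reads per library, that gap is too small to read. Grk2, Arrb2, Grk6, Itch and Grk5 were named after their values were seen.

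**Figure D4:**
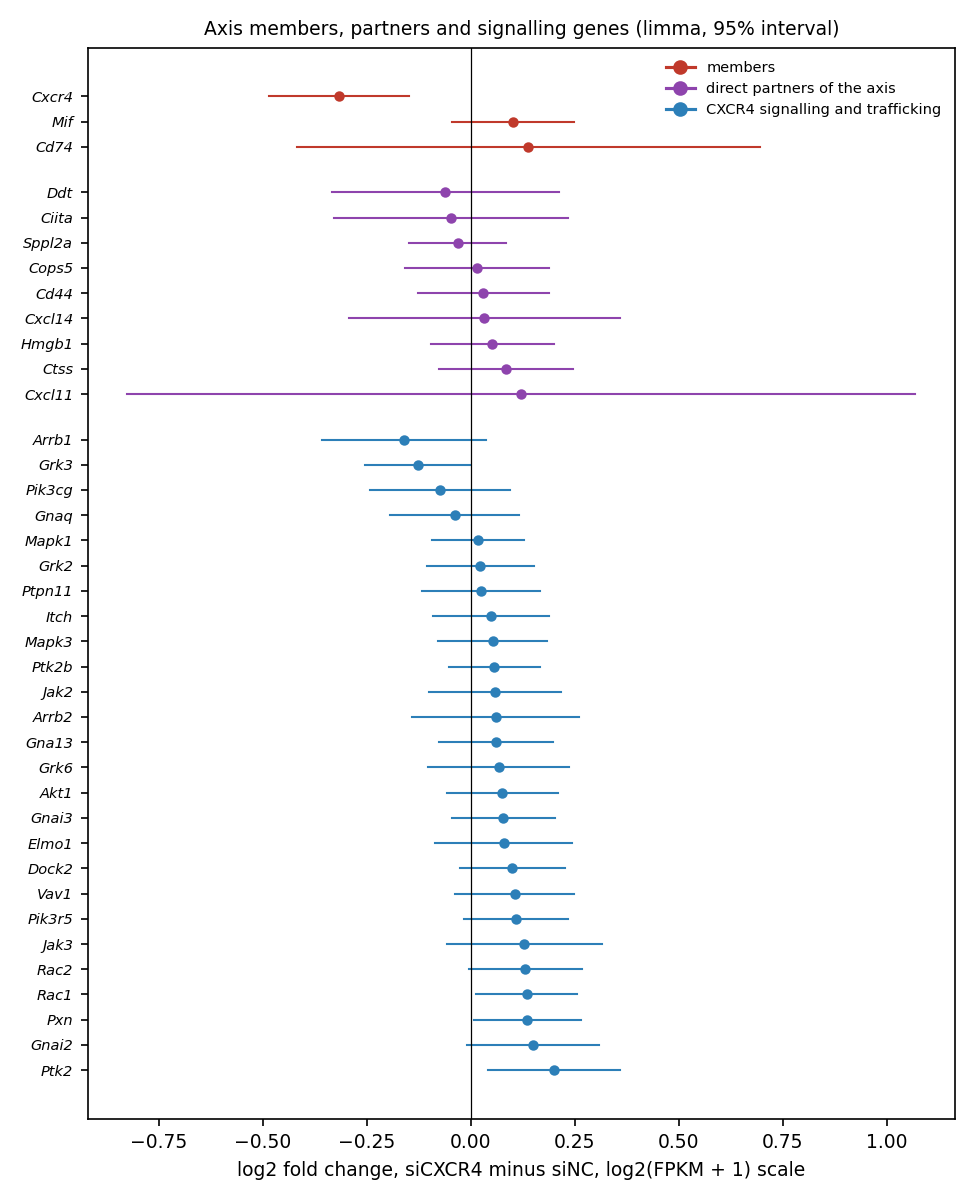
Log2 fold changes (siCXCR4 minus siNC, points) with 95% intervals from limma (lines) for the 3 tested members, 9 partners and 26 signalling genes. Cxcr4 has the lowest value at -0.32, most signalling genes lie just above 0, and the intervals of Cd74 and Cxcl11 are the widest.

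The pattern of each tested member over the 5 libraries was set against 8891 other genes by the root mean square difference of log2(FPKM + 1) after removing each gene's mean. Nearest to Cxcr4 were Sesn1, a stress-induced sestrin (0.0164), Rpl7a, a protein of the large ribosomal subunit (0.0229), and Tmem258, a subunit of the oligosaccharyltransferase (0.0237), against a median distance of 0.189. Sesn1 had 1.67, 2.09 and 1.86 FPKM in siCXCR4 and 2.56 and 2.55 FPKM in siNC. Genes of nearest pattern were chosen for their likeness to the member, so a shared direction follows from the choice and is no further result. Ribosomal protein genes have near-identical copies, so the Rpl7a level is uncertain. Nearest to Mif were Mrpl43 (0.00833), Kctd2 (0.00963) and Ero1l (0.0120), against a median of 0.0953. Among the 3 nearest to Cd74 were Sirpb1c (0.0372) and the purine enzyme Xdh (0.0688), against a median of 0.246. Xdh had 31.6, 27.6 and 38.1 FPKM in siCXCR4 and 27.6 and 33.7 FPKM in siNC, low in the same libraries as Cd74, as the way it was chosen implies.

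**Figure D5:**
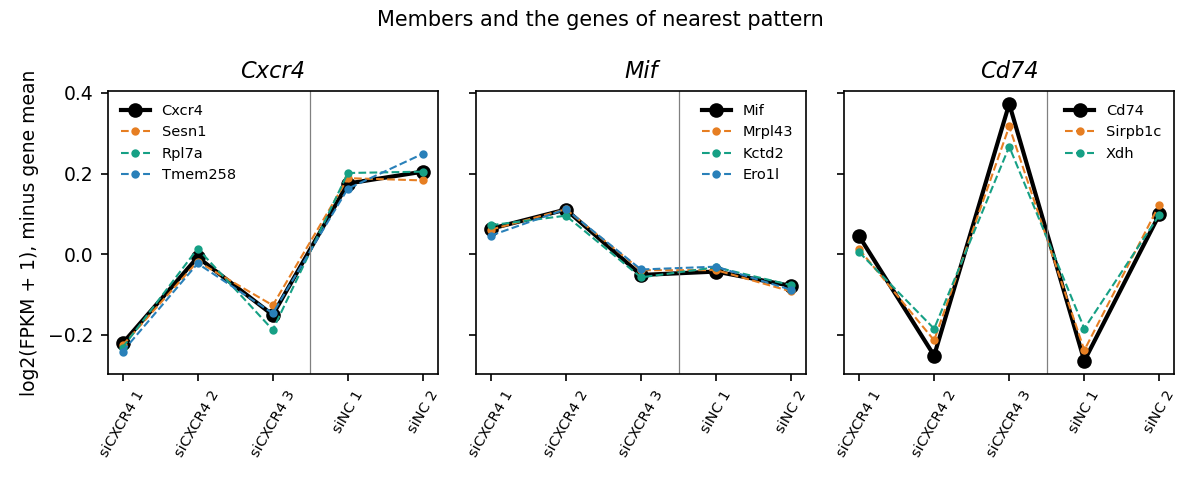
Log2(FPKM + 1) minus the gene's mean in each library for Cxcr4, Mif and Cd74 (black) and genes of nearest pattern (coloured; 3 for Cxcr4 and Mif, 2 for Cd74), siCXCR4 left of the vertical line and siNC right of it; lines join points of the same gene only to guide the eye. Cxcr4 and its neighbours are lower in every siCXCR4 library than in siNC, while Cd74 and its neighbours are low in siCXCR4 replicate 2 and siNC replicate 1. Neighbours were chosen for this likeness, so the shared pattern follows from the choice.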

How the data were processed

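The authors deposited 1 table of 54532 genes per sample. The file headers give no unit. In 5 tables the deposited values are read here as FPKM because, multiplied by gene length, 100% of those above 0 were whole multiples (tolerance 0.05) of a library's step, a pattern RPKM would share. The siNC replicate 3 table holds deposited whole read counts equal to siNC replicate 2. The submitters' processing notes name mm9, but 98.3% of genes shared with GENCODE M21 had its GRCm38 position, so coordinates are GRCm38. Aligner, counting and strand setting were not stated in the sources used here.

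Where a symbol had several entries (102 symbols), the entry of highest mean was used. The test was limma 3.58.1 in R 4.3.3 (trend and robust estimate, two-sided, Benjamini-Hochberg) on log2(FPKM + 1), for 9943 genes averaging 1 FPKM or more; the pseudocount understates changes of low genes. On whole reads recovered from FPKM, edgeR 4.0.16 (TMM, quasi-likelihood) and DESeq2 1.42.0 were alternatives. After a first run whose counts of calls differed from those of an earlier analysis of these data, edgeR was given its robust estimate and DESeq2 edgeR's filter, to follow that analysis; fits without these settings were then added. The tests were tried on simulated data.

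Members and lists were chosen with earlier results of these data known. The text names the members, the measured partners, the 8 signalling genes of lowest p and the 3 most abundant, the 3 most abundant of each marker list (B and T cell markers are given as a sum), and the 3 genes of nearest pattern to each tested member, of which some are not reported here. Other markers, and genes described as such, were named after their values were seen. Promoters are from RefSeq, GRCm38.p6, and all 4 members looked up matched.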

Additional observations from a re-analysis of the deposited data

How the results depend on the processing

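Cxcr4 was lower in siCXCR4 under all 23 alternatives (-0.40 to -0.27 on the log2 scale, adjusted p from 0.00104 to 0.866). It passed 0.05 under 2 of them, DESeq2 with edgeR's filter (-0.34, adjusted p = 0.0465) and edgeR without siCXCR4 replicate 2 (-0.40), and not with DESeq2 unfiltered (0.0511). With 1 library left out in limma it ran from -0.38 to -0.27. Mif was higher under all 23 (0.05 to 0.15) and never passed. The Mif to Cxcr4 difference ran from 0.37 to 0.46 with 1 library left out. Ackr3, at 0 reads, gave no fold under any setting. For Cxcl12, at or under 3 reads per library, no fold is given.

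Genes called numbered 0 by limma, 17 by edgeR, 3 by edgeR without its robust estimate, 33 by DESeq2, 28 by DESeq2 unfiltered and 6 with the repeated siNC table as a separate replicate. With 1 library left out, limma called 0 to 2. edgeR called 312 without siCXCR4 replicate 2, 0 without siCXCR4 replicate 1, 3 without siCXCR4 replicate 3, 5 without siNC replicate 1 and 20 without siNC replicate 2.

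Both groups share replicate numbers. Deviations of same-numbered libraries correlated at -0.04 (replicates 1) and -0.111 (replicates 2) across genes. With only 2 siNC libraries, their deviations from the group mean mirror each other, so these correlations cannot settle whether replicates were paired. The labels state no pairing, and the numbers were not taken as pairs. With a replicate block 0 genes were called (500 at an unadjusted p under 0.05, against 929), Cxcr4 stood at -0.30 (adjusted p = 0.815), Cd74 turned to -0.020 and Cxcl11 to -0.060. Replicate 3 has no distinct siNC library, so the block takes siCXCR4 replicate 3 out of the comparison. These log2 fold changes equal those of the limma fit without that library, and are not a separate effect of pairing.

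Other directions turned as well. Cops5 was at -0.0059 by edgeR with or without its robust estimate, -0.0032 by DESeq2 and -0.0029 with quantile normalization. With 1 library left out in limma, Cd44 ran from -0.021 to 0.074, Cd74 ran from -0.043 to 0.32, Ciita ran from -0.20 to 0.099, Cops5 ran from -0.079 to 0.11, Cxcl11 ran from -0.16 to 0.40, Cxcl14 ran from -0.14 to 0.21 and Ddt ran from -0.17 to 0.0039. The values that turned with 1 left out in edgeR were these: Cd44 was at -0.0019 and -0.038, Cd74 was at -0.040 and -0.043, Ciita was at 0.11, Cops5 was at -0.098 and -0.0034 and -0.037, Ctss was at -0.0045, Cxcl11 was at -0.14 and -0.049 and Cxcl14 was at -0.18 and -0.098. The cause was not tested. The edgeR fits with a library left out, the ratio without each library and the fits without the robust estimate or filter were chosen after seeing the data.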
